A study of Mus musculus with 18 samples.

Results

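The comparison is of tibialis anterior muscle injected with ssRNA, single-stranded RNA, against contralateral muscle injected with saline in A/J-MyD88 mice, which the labels call deficient in both dysferlin and MyD88. The members are the 6 arrays whose titles name this strain, 3 for ssRNA and 3 for saline, of 18 arrays in all. The tibialis anterior, a shin muscle, is made mostly of fast fibres. All mice were 2 months old and received 3 injections within 10 days, with 3 days of recovery between injections. The saline leg therefore belonged to an animal that received ssRNA in its other leg. A/J mice, labelled dysferlin deficient, were treated in the same way, and their 3 ssRNA and 3 saline arrays are the only others set beside these results. The remaining arrays, of the dysferlin-sufficient strain A/JOlaHsd, entered the normalization and the estimate of the spread between arrays. The labels give no count of animals, so p-values measure the spread between arrays. The sources used here give neither the sequence nor the dose of the ssRNA, nor which part of Myd88 is altered.

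Single-stranded RNA taken up into endosomes is sensed in mice by Tlr7 (and, for bacterial ribosomal RNA, by Tlr13), receptors that reach the endosome with the help of the chaperone Unc93b1. Both signal through the adaptor MyD88, which recruits Irak kinases and Traf6 and leads to NF-kB activation, inflammatory cytokines and, through Irf7, type I interferon. Cytoplasmic RNA sensors such as RIG-I, encoded by Ddx58, signal through Mavs and do not need MyD88. In muscle fibres dysferlin takes part in resealing the torn membrane, and its loss causes a muscular dystrophy in which macrophages collect between fibres.

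RNA was measured on Illumina bead arrays. Mean signal was 133, 140 and 98.1 units on the 3 ssRNA arrays, against 121, 133 and 127 units on the 3 saline arrays. ssRNA array 3 was thus the dimmest of the 6, and the means did not separate by leg (exact two-sided permutation test, p = 0.9, n = 3 each, where the smallest possible p is 0.1). Between 39.0% and 42.6% of probes were above background on each array. Arrays correlated as closely between legs (Spearman 0.976 to 0.989 over genes) as within a treatment (0.974 to 0.984), genes not being independent replicates. Muscle identity was clear on all 6 arrays: the mean of 8 muscle fibre genes was 12.11, 11.97 and 12.10 log2 units on ssRNA arrays and 12.06, 12.01 and 12.01 on saline arrays. One array of the series, A/JOlaHsd ssRNA 2, carried no muscle signal, correlated with no other array above 0.00258 and was left out. Values below are log2 of background-corrected, quantile-normalized signal with an offset of 16, for 11233 genes, 1 probe each. Differences are ssRNA minus saline with the standard error of the fit, and ± beside a group mean is the SD of 3 arrays.

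The genes named in the labels were examined first. Dysf read 6.03, 6.23 and 6.14 on ssRNA arrays and 5.87, 6.19 and 6.39 on saline arrays, a difference of -0.01 ± 0.14. Myd88 read 7.42, 7.97 and 7.66 on ssRNA arrays and 7.29, 7.79 and 7.71 on saline arrays, a difference of 0.09 ± 0.17. The legs overlapped for both genes. Dimmer Dysf probes differed by 0.24, -0.19, -0.11 and, detected on no array, -0.04. A second Myd88 probe was dimmer and differed by 0.12. Myd88 signal in A/J-MyD88 saline muscle was 0.71 log2 units above that of A/J saline muscle (limma, adjusted p = 0.0203), so it was not lower there. Where these probes lie relative to the altered part of either gene is not given, and their signal is no check of the labels. In A/J, Myd88 rose with ssRNA by 1.25 ± 0.17, and the response of A/J-MyD88 minus that of A/J was -1.17 ± 0.24 (adjusted p = 0.00578).

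No gene passed the test for a change with ssRNA in A/J-MyD88 muscle. In limma's moderated test with Benjamini-Hochberg adjustment, 0 of 11233 genes (0%) passed an adjusted p of 0.05, and the smallest adjusted p was 1.00. At an unadjusted p under 0.05 stood 131 genes (1.17%), of which 85 were higher and 46 lower with ssRNA. Where nothing changes, this threshold passes a share of 0.05 on average, so 1.17% was a deficit. The fit pools the spread of all groups and leaves out the array number. With only the compared arrays the number was 357 of 10292 genes, and 503 with the array number as a block as well. With all 18 arrays it was 20 of 11258. The median standard error was 0.165 in the main fit, and 0.129, 0.116 and 0.388 in these fits, in that order. The cause of the deficit was not tested. The count of 0 held in every alternative that was run. In A/J the same test called 2518 genes (22.4%), 1394 of them higher (12.4%) and 1124 lower (10.0%).

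Over all genes the SD of the log2 difference was 0.144 in A/J-MyD88 and 0.520 in A/J, and the median absolute difference was 0.0805 in A/J-MyD88 and 0.238 in A/J. A difference past 2-fold in value was seen for 8 genes in A/J-MyD88, 4 in each direction, and for 603 in A/J. Past 1.5-fold were 51 genes in A/J-MyD88 and 1837 in A/J. The plot of all differences shows a narrow, nearly symmetric distribution for A/J-MyD88 and a long right arm for A/J.

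**Figure D1:**
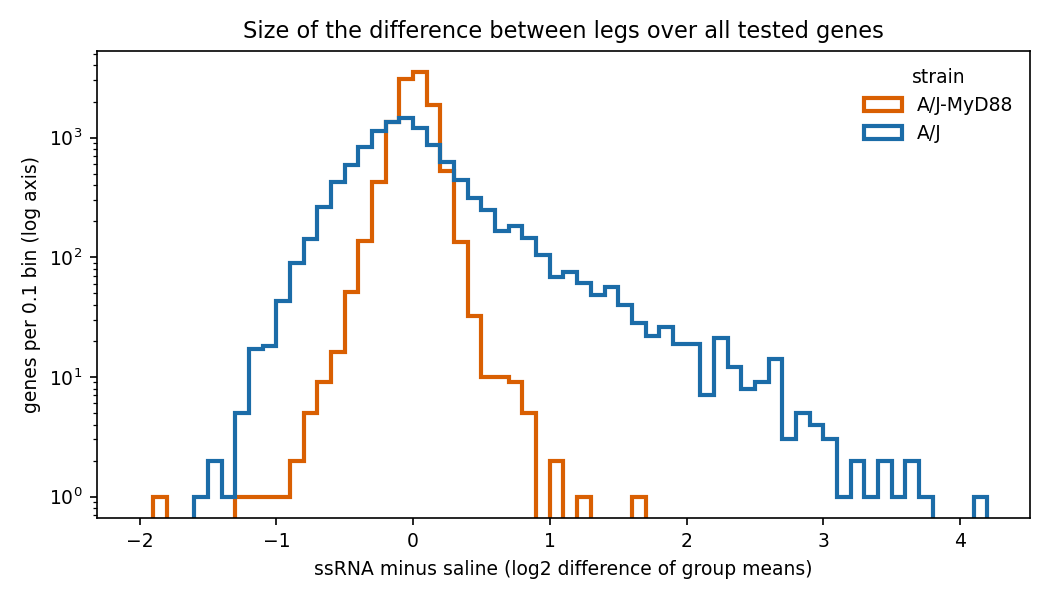
Number of genes (log axis) by log2 difference between the ssRNA and saline legs, in bins of 0.1, for A/J-MyD88 (orange) and A/J (blue), 11233 genes each. A/J-MyD88 differences have an SD of 0.144 and span -1.86 to 1.60, and A/J differences have an SD of 0.520 and reach 4.12.

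Absence of a call is not evidence of no change, so each gene was also tested for whether a change of 2-fold could be excluded. A gene counted as excluded where its difference lay significantly inside both limits of 1 log2 unit (the larger of 2 one-sided moderated tests, adjusted over all genes, under 0.05). A 2-fold change in either direction was excluded for 11118 genes (99.0%) and a 1.5-fold change for 9847 (87.7%). The same test on A/J excluded a 2-fold change for 9654 genes (85.9%). A 2-fold rise alone was excluded for 11176 genes (99.5%) and a 2-fold fall alone for 11164 (99.4%). The median half-width of the 95% interval was 0.35 log2 units. These limits apply to the scale with its offset, which compresses changes of dim genes. The authors' own normalized values have no such offset, but were raised here to a floor, the 5th percentile of positive values in each strain. On them a 2-fold change was excluded for 6986 genes. These were 97.0% of the 2432 genes above a mean of 8, 90.3% of the 3394 genes between 6 and 8, and 28.9% of the 5407 genes below 6. On the main scale the shares were 98.7%, 98.4% and 99.5%. A 1.5-fold change was excluded on the authors' values for 2707 genes (24.1%), and for 58.6%, 33.4% and 2.72% of these 3 ranges of signal. The 2-fold exclusion thus held on both scales for most genes above a mean of 6, and below it mainly on the scale with the offset; the 1.5-fold exclusion of most genes did not hold on the authors' values. Because the filter used all 17 arrays, 179 of the tested genes were above background on none of the 6 arrays, where a difference is bounded by the background itself. Among the 10292 genes detected on 3 or more of the 6, a 2-fold change was excluded for 98.9%.

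The 6 narrowest intervals among genes detected on all arrays fell on Park7, Map9, Smarcb1, Nsun4, Eif2a and Rplp1. Park7, which encodes the oxidative stress protein DJ-1, read 12.68, 12.78 and 12.71 with ssRNA and 12.64, 12.73 and 12.72 with saline, and its 95% interval ran from -0.17 to 0.22. Smarcb1, a core subunit of the SWI/SNF chromatin remodeller, read 6.48, 6.50 and 6.46 with ssRNA and 6.46, 6.52 and 6.51 with saline, with an interval of -0.22 to 0.19. Eif2a, a translation initiation factor, and Nsun4, a mitochondrial RNA methyltransferase, had intervals of -0.14 to 0.27 and -0.13 to 0.28. Map9, a microtubule-associated protein near the low end of detection, had an interval of -0.13 to 0.28. The ribosomal stalk gene Rplp1 was lower on all ssRNA arrays, 13.18, 13.18 and 13.10 against 13.20, 13.28 and 13.24 with saline, yet by only -0.09 ± 0.10, and it did not lean in every setting.

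The genes that changed most in A/J muscle lay near 0 in A/J-MyD88 muscle. These genes were chosen on A/J values, so only their A/J-MyD88 values, from other arrays, are a result. Of 550 genes called and over 2-fold higher in A/J (4.90% of genes), 538 (97.8%) had a 2-fold rise excluded in A/J-MyD88, and 438 (79.6%) a 1.5-fold rise, compared with 99.5% and 94.2% of all genes. On the authors' values a 2-fold rise was excluded for 596 of 851 such genes (70.0%). Their median difference was 0.00 in A/J-MyD88, with a 5th to 95th percentile of -0.32 to 0.29, and 1.45 in A/J. Of the 550, 331 were already higher in A/J-MyD88 saline muscle than in A/J saline muscle (limma, adjusted p under 0.05, median 0.86), against 493 of all genes (4.39%). The A/J saline arrays also entered the choice of the 550, which favours genes low on them. This count is therefore not independent of the choice. All 41 genes called and over 2-fold lower in A/J (0.365%) had a 2-fold fall excluded in A/J-MyD88, with a median of 0.04 there and -1.11 in A/J. Over all genes, the response of A/J-MyD88 minus that of A/J passed the interaction test for 1144 genes (10.2%), 769 below 0 (6.85%) and 375 above (3.34%).

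Ccl8, a monocyte chemoattractant, read 5.83, 5.99 and 5.60 on ssRNA arrays and 6.68, 6.22 and 5.24 on saline arrays of A/J-MyD88, a difference of -0.24 ± 0.28, and differed by 3.79 ± 0.28 in A/J. Its legs overlapped in A/J-MyD88. Lyz2, the lysozyme of myeloid cells, read 10.82, 10.38 and 10.25 with ssRNA and 10.64, 11.31 and 10.53 with saline, a difference of -0.35 ± 0.45, against 3.40 ± 0.45 in A/J. Saline array 2 was the highest of the 6. Cd52, a leucocyte surface glycoprotein, read 8.31, 8.14 and 8.70 with ssRNA and 7.96, 8.56 and 8.17 with saline, a difference of 0.15 ± 0.22, against 3.28 ± 0.22 in A/J. The legs overlapped again, and for all of these the response differed between strains (interaction term of the limma fit, adjusted p = 0.000113, 0.00182 and 0.000113).

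The interferon-induced Ifi27l2a (-0.02 ± 0.30), the macrophage membrane proteins Ms4a6d (-0.16 ± 0.44) and Ms4a7 (-0.07 ± 0.34), and Ly86 (-0.08 ± 0.33), which pairs with a Toll-like receptor homologue, gave differences at or below 0 with overlapping legs. For each of these, and for Ccl8, Lyz2, Cd52, Fcgr4 and Plac8, a 2-fold rise was excluded. Fcgr4, an activating receptor for immunoglobulin G, had the largest positive value of the 10, 0.40 ± 0.33, with 5.91, 6.44 and 7.002 on ssRNA arrays and 5.64, 6.28 and 6.23 on saline arrays. Plac8 was the only one of the 10 with no overlap, at 5.38, 5.33 and 5.79 on ssRNA arrays and 5.28, 5.16 and 5.17 on saline arrays, a difference of 0.30 ± 0.35 against 3.45 ± 0.35 in A/J. Among all 550 genes, 17 (3.09%) lay higher on every ssRNA array and 10 (1.82%) lower, compared with 5.63% and 3.23% of all genes.

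The 10th gene, Fcer1g, the common signalling chain of Fc receptors, could not be bounded in this fit. It read 4.21, 8.34 and 8.48 on ssRNA arrays and 4.16, 8.82 and 8.25 on saline arrays, so both arrays numbered 1 were at background. Its 95% interval was -2.38 to 2.25, although the legs of each number lay within 0.5 log2 units of each other. With the array number as a block the interval became -1.12 to 0.98. By the one-sided tests a 2-fold change was then excluded (adjusted p = 0.0382), although the two-sided interval still reached past a 2-fold fall.

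The genes that fell most in A/J lay near 0 in A/J-MyD88 as well. Pdk2, a kinase that restrains pyruvate dehydrogenase, read 8.30, 8.11 and 8.78 with ssRNA and 8.31, 7.94 and 8.82 with saline, a difference of 0.04 ± 0.30, against -1.56 ± 0.30 in A/J. Slc16a3, a lactate exporter, differed by 0.19 ± 0.28 against -1.46 ± 0.28 in A/J. Crat, the carnitine acetyltransferase, differed by 0.04 ± 0.19 against -1.30 ± 0.19, the lipid droplet gene Fitm1 by 0.07 ± 0.26 against -1.41 ± 0.26, and the signalling ligand Wnt4 by -0.19 ± 0.18 against -1.34 ± 0.18. A 2-fold change in either direction was excluded in A/J-MyD88 for each of these 5 genes.

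**Figure D2:**
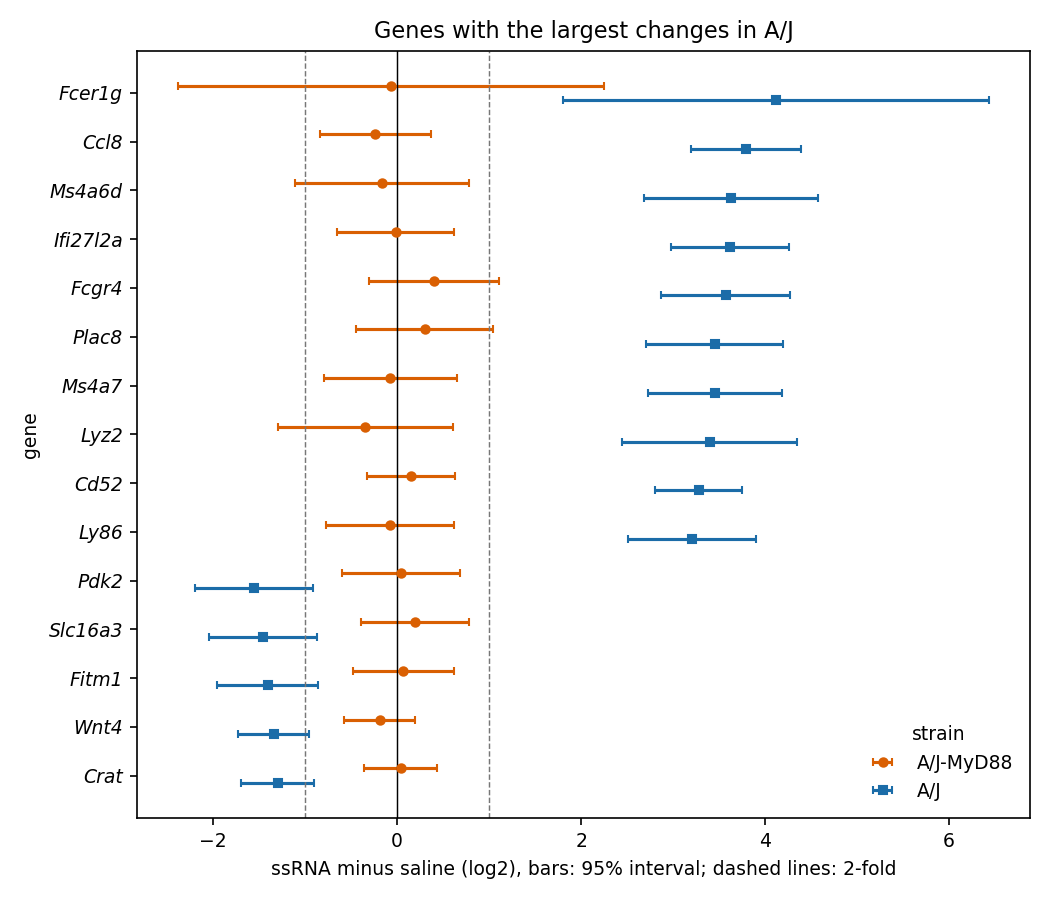
Log2 difference between the ssRNA and saline legs for the 10 genes that rose most and the 5 that fell most in A/J, with 95% intervals, in A/J-MyD88 (orange circles) and A/J (blue squares). All 15 A/J-MyD88 estimates lie between -0.35 and 0.40, and Fcer1g has the widest interval.

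Similar values in the legs of A/J-MyD88 mice did not mean that the genes were silent there. Lyz2 averaged 10.49 ± 0.30 in ssRNA muscle and 10.83 ± 0.42 in saline muscle of A/J-MyD88, against 11.39 ± 0.36 in ssRNA muscle and 7.99 ± 0.43 in saline muscle of A/J (n = 3 each). Ms4a6d averaged 8.73 ± 0.33 in ssRNA muscle and 8.89 ± 0.49 in saline muscle of A/J-MyD88, against 9.81 ± 0.40 in ssRNA muscle and 6.18 ± 0.35 in saline muscle of A/J. Between the saline legs, the A/J-MyD88 excess was 2.84 for Lyz2 (limma, adjusted p = 0.00197) and 2.72 for Ms4a6d (adjusted p = 0.00223). Both genes were named for their rise in A/J, which rests on the same A/J saline arrays. These p-values are therefore not independent of the choice. Both legs of A/J-MyD88 mice thus lay between the legs of A/J mice for these macrophage-expressed genes, and the same held for the macrophage list as a whole. Its 27 tested genes averaged 7.43, 7.28 and 7.44 on ssRNA arrays and 7.27, 7.78 and 7.27 on saline arrays of A/J-MyD88, against 8.45 in ssRNA muscle and 6.08 in saline muscle of A/J. In such bulk samples fewer cells of a type and less RNA per cell cannot be told apart.

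None of the 27 macrophage markers was called between the legs, their median difference was -0.09 (2.44 in A/J, where 24 were called higher), and 10 lay above 0. The summed signal ranged from 14161 to 21257 units on ssRNA arrays and from 15763 to 26308 on saline arrays. These sums were not scaled between arrays, and the lowest was on ssRNA array 3, the dimmest of the 6. Saline array 2 was the highest of the 6 for 19 of the 27 genes. The median was 0.07 without it and -0.23 without saline array 3. Csf1r, the receptor that maintains macrophages, read 7.98, 7.51 and 7.92 with ssRNA and 7.87, 8.41 and 7.54 with saline. Adgre1, which encodes F4/80, read 7.07, 6.93 and 7.13 with ssRNA and 6.91, 7.88 and 7.06 with saline. Msr1, and Cybb of the listed genes not tested, were detected on no A/J-MyD88 array. A 2-fold change was excluded for 23 of the 27.

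The endosomal receptors and their chaperone had overlapping legs. Tlr7 read 6.06, 5.81 and 6.12 on ssRNA arrays and 6.03, 6.33 and 5.83 on saline arrays, a difference of -0.07 ± 0.24, against 2.14 ± 0.24 in A/J. Tlr13 read 6.54, 5.80 and 5.87 with ssRNA and 6.01, 6.36 and 5.81 with saline, and differed by 0.01 ± 0.40. Their chaperone Unc93b1 read 7.89, 8.27 and 8.20 with ssRNA and 7.82, 8.61 and 7.80 with saline, and differed by 0.04 ± 0.32, against 1.97 ± 0.32 in A/J. Of 30 tested genes of the pathway, none was called, 28 had a 2-fold change excluded, and the median difference was -0.04. The 2 exceptions were the genes with the largest values. Ctsk, a lysosomal cysteine protease, read 7.90, 8.62 and 8.34 with ssRNA and 7.83, 7.91 and 7.26 with saline (0.62 ± 0.25), with 1 overlapping array. Irf7, the transcription factor that drives type I interferon after Tlr7 signalling and is itself interferon-induced, read 4.64, 4.87 and 5.41 with ssRNA and 4.40, 4.51 and 4.50 with saline, a difference of 0.50 ± 0.33, with no overlap. Signals of Irf7 were near the lower end of the scale. In all, 2 of the 30 leaned higher and 2 lower (6.67% each, against 5.63% and 3.23% of all genes). Beside Irf7, Tab1 leaned higher, not in all settings, at 8.52, 8.62 and 8.56 with ssRNA and 8.27, 8.38 and 8.39 with saline. Map3k7, the kinase TAK1 that Tab1 activates, leaned lower in all settings, at 4.998, 4.71 and 4.95 with ssRNA and 5.06, 5.15 and 5.13 with saline, a difference of -0.23 ± 0.18. So did Nfkb2, which encodes an NF-kB subunit, at 4.63, 4.60 and 4.81 with ssRNA and 4.82, 4.92 and 4.82 with saline, a difference of -0.17 ± 0.12.

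Of the immune lists, interferon-induced genes had the highest median. None of the 33 tested was called, but 29 differences were above 0, the median was 0.26 (0.01 over all genes), and 7 lay higher on every ssRNA array (21.2%, against 5.63% of all genes). Of these, 4 (Ifit3, Oasl2, Irf7 and Cmpk2) did so in all settings, while Bst2, Rtp4 and Lgals3bp did not. The list mean was 6.24, 6.30 and 6.74 on ssRNA arrays and 6.15, 6.18 and 6.16 on saline arrays. Array ssRNA 3 was the highest of the 6 for 22 of the 33 genes and is also the array with the lowest mean signal; the part of the dim signal in this result was not tested. Without it the median was 0.10. In A/J, 22 of the 33 were called higher, with a median of 1.16. A 2-fold rise was excluded in A/J-MyD88 for 24 of the 33 and a 2-fold fall for all 33. Oas3 and Ifi204 were at background on all 6 arrays, so for them an exclusion reads background.

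Ifit3, an antiviral protein that partners Ifit1, read 6.95, 6.95 and 8.46 on ssRNA arrays and 6.46, 6.01 and 6.74 on saline arrays, a difference of 1.05 ± 0.62 (unadjusted p = 0.111). Its lowest ssRNA array exceeded its highest saline array, and without ssRNA array 3 the difference was 0.55. Oasl2, of the oligoadenylate synthetase family, read 6.35, 6.48 and 7.55 with ssRNA and 6.10, 6.22 and 6.18 with saline, a difference of 0.63 ± 0.41. Cmpk2, a mitochondrial nucleotide kinase, read 5.49, 5.34 and 6.40 with ssRNA and 5.17, 5.18 and 5.30 with saline, a difference of 0.52 ± 0.42. For each of these ssRNA arrays 1 and 2 lay close to the saline arrays and ssRNA array 3 stood clear. Ifit2 (0.74 ± 0.48), Usp18 (0.61 ± 0.40), which removes Isg15 from proteins, and Rsad2 (0.61 ± 0.65), which encodes viperin, had overlapping legs. Ifitm3, an inhibitor of viral entry and a gene of high signal, read 10.61, 10.68 and 10.71 with ssRNA and 10.79, 10.85 and 10.43 with saline.

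Interferon acts on these genes through the interferon-stimulated response element, and the promoter of Ifit3, the group's largest value, is shown for it. The stretch lies on the plus strand just before the gene's start (GRCm38.p6, chr19:34583353-34583436; RefSeq promoter table), and capitals mark the 2 matches to its core, GAAA followed by any 2 bases and GAAA again, here read on the opposite strand. The match nearer the gene ends 112 bases before its start.
Ifit3: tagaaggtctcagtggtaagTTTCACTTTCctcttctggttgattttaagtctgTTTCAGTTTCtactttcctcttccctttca
Searched on both strands of the 250 bases before the start, this motif was found for 13 of 25 tested interferon-induced genes with a promoter in the table (52%), against 288 of 9058 tested genes (3.18%) and 936 of all 27025 promoters (3.46%). Among the 6 leaning interferon-induced genes with a promoter, it was found for Ifit3 and Bst2. A match describes the sequence only.

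RNA sensing that does not pass through MyD88 gave small values. None of 17 tested genes was called. All 17 had a 2-fold change excluded on the scale with its offset, which compresses changes of dim genes. The list mean was 5.94, 6.03 and 6.17 on ssRNA arrays and 5.91, 5.95 and 5.96 on saline arrays. On the authors' values a 2-fold change was excluded for 28.9% of all genes below a mean of 6. The list median was 0.11 with 14 genes above 0. Without ssRNA array 2 the median was 0.02. Ddx58 read 4.73, 4.74 and 4.87 with ssRNA and 4.85, 4.71 and 4.77 with saline, and differed by 0.00 ± 0.26. Mavs differed by 0.12 ± 0.15, with overlapping legs. Higher on all ssRNA arrays in all settings lay 3 members (17.6% of the list, where 5.63% of all genes leaned higher and 2.60% leaned one way in all settings): Eif2ak2, the kinase PKR, at 7.32, 7.33 and 7.78 with ssRNA and 7.13, 7.13 and 7.13 with saline; the editing enzyme Adar, at 5.32, 5.47 and 5.78 with ssRNA and 5.11, 5.17 and 5.29 with saline; and the helicase Dhx9, at 5.10, 5.001 and 5.02 with ssRNA and 4.75, 4.76 and 4.78 with saline. Their differences were 0.34 ± 0.29, 0.33 ± 0.16 and 0.28 ± 0.24.

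Cytokines, antigen presentation and complement genes had medians near 0. Of 29, 27 and 11 tested genes none was called, every one had a 2-fold change excluded, and the medians were -0.03, 0.03 and 0.00, against 0.53, 1.46 and 1.16 in A/J. Of the cytokines, Ccl3 and Cxcl13 were at background on all 6 arrays, so for them the exclusion reads background. The cytokine list mean was 5.63, 5.64 and 5.57 on ssRNA arrays and 5.72, 5.64 and 5.51 on saline arrays. These exclusions apply to the scale with its offset, which compresses changes of dim genes. Ccl7, a monocyte chemokine, read 4.92, 5.09 and 4.64 with ssRNA and 5.53, 5.24 and 5.14 with saline, a difference of -0.42 ± 0.28, and was lower on all ssRNA arrays, against 1.75 ± 0.28 in A/J. Nlrc5, the activator of class I genes, read 5.02, 5.09 and 5.63 with ssRNA and 4.97, 4.96 and 4.98 with saline, without overlap, a difference of 0.28 ± 0.26. The class II chain H2-Eb1 differed by 0.25 ± 0.28 with overlapping legs, and properdin, Cfp, by -0.27 ± 0.27.

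Which genes leaned one way was taken from the arrays alone: a gene leaned where all 3 ssRNA arrays lay above, or all below, all 3 saline arrays. Higher leaned 632 genes (5.63%) and lower 363 (3.23%), together 995 (8.86%), against 5025 (44.7%) in A/J. Of the ways to split 6 arrays 3 against 3, a share of 0.1 separates a gene fully, whatever the treatment. The 8.86% in A/J-MyD88 did not exceed that share. Same-numbered arrays correlated between the legs, so the splits need not be equally likely. The comparison with that share therefore decides nothing. The median absolute difference of the 995 was 0.19, and 27 were past 1.5-fold in value. The split depended on scaling: 63.5% leaned higher with quantile normalization and 33.6% with median centring (189 higher, 374 lower). In all of 6 settings 292 genes (2.60%) leaned one way, 124 higher and 168 lower. Taken by array number, 1810 genes (16.1%) were higher in the ssRNA leg for all 3 numbers and 1121 (9.98%) lower. For 962 of the 995 a 2-fold change was excluded. Leaning was not tested, and no gene below passed the adjusted test.

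**Figure D3:**
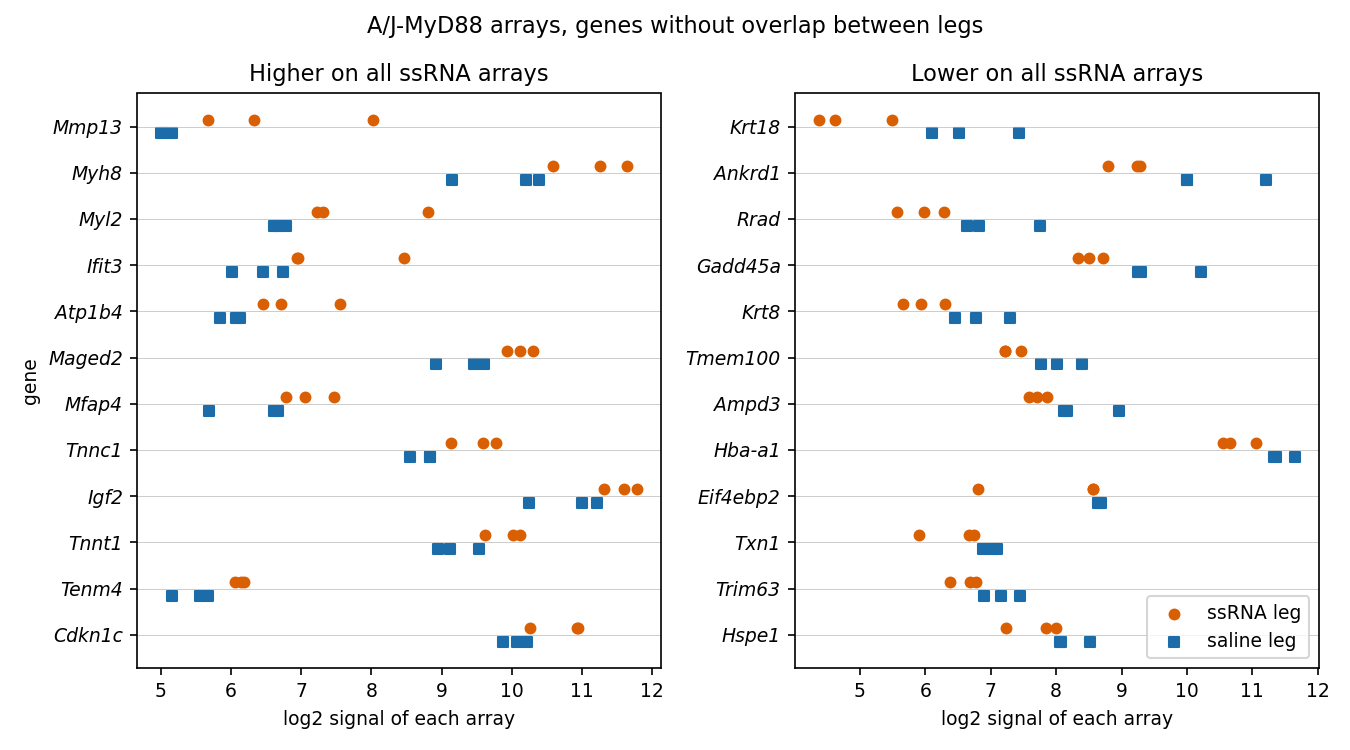
Log2 signal on each A/J-MyD88 array for the 12 genes with the largest positive (left) and the 12 with the largest negative (right) difference among leaning genes; orange circles are ssRNA legs and blue squares saline legs. Legs do not overlap in any row, by selection, and the gaps between legs are small beside the spread within a leg for several genes, such as Igf2 and Eif4ebp2.

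Among genes that leaned higher, Mmp13, a collagenase, had the largest value. It read 5.66, 8.03 and 6.32 on ssRNA arrays and 5.01, 5.16 and 5.05 on saline arrays, a difference of 1.60 ± 0.56 (95% interval 0.41 to 2.79, unadjusted p = 0.0118). The saline arrays were tight and the ssRNA arrays spread widely. Without ssRNA array 2 the difference was 0.91, below those of Myl2 (1.33), Ifit3 (1.30) and Myh8 (1.01) over the same arrays. Myh8, the perinatal myosin heavy chain that regenerating fibres re-express, read 10.59, 11.64 and 11.26 with ssRNA and 10.20, 10.39 and 9.15 with saline, a difference of 1.25 ± 0.39 (95% interval 0.42 to 2.08). Saline array 3 was its lowest. Igf2, a growth factor of developing and regenerating muscle, read 11.31, 11.78 and 11.60 with ssRNA and 11.21, 10.99 and 10.24 with saline, a difference of 0.75 ± 0.23. Cdkn1c, a cyclin-dependent kinase inhibitor, read 10.26, 10.93 and 10.95 with ssRNA and 10.07, 10.22 and 9.88 with saline, a difference of 0.66 ± 0.22. For both, the gap between the nearest arrays of the legs was small, and without saline array 3 the difference of Igf2 was 0.46.

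Beside Myh8, 4 of the 12 encode contractile or muscle membrane proteins. Myl2, the slow and cardiac regulatory light chain, read 8.81, 7.31 and 7.22 with ssRNA and 6.67, 6.78 and 6.61 with saline; the difference of 1.10 ± 0.81 had an interval of -0.61 to 2.80 and was 0.58 without ssRNA array 1. Tnnc1, troponin C of slow fibres, read 9.13, 9.59 and 9.78 with ssRNA and 8.83, 8.84 and 8.54 with saline, and Tnnt1, slow troponin T, read 9.61, 10.01 and 10.12 with ssRNA and 8.94, 9.53 and 9.12 with saline. Their differences were 0.76 ± 0.33 and 0.72 ± 0.32. Atp1b4, a muscle member of the sodium pump beta family, read 6.71, 7.56 and 6.45 with ssRNA and 6.13, 6.06 and 5.84 with saline, a difference of 0.89 ± 0.26 (0.56 without ssRNA array 2), and -0.03 ± 0.26 in A/J. The microfibril protein Mfap4 read 6.79, 7.47 and 7.05 with ssRNA and 6.67, 6.61 and 5.69 with saline, a difference of 0.78 ± 0.30 that was 0.46 without saline array 3. The others were Maged2 (0.79 ± 0.24) and the teneurin Tenm4 (0.67 ± 0.26). Saline array 3 was the lowest of the 6 for 9 of the 12 genes, and ssRNA array 2 the highest for 7. All 12 leaned in all settings.

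Of the genes that leaned lower, Krt18 had the largest value. This keratin read 4.37, 4.61 and 5.49 on ssRNA arrays and 6.10, 7.43 and 6.52 on saline arrays, a difference of -1.86 ± 0.51 (95% interval -2.94 to -0.77, unadjusted p = 0.00222), and was above background on 2 of 3 ssRNA arrays. On the authors' values, which have a floor but no offset, the difference was -3.23. Krt8, its filament partner, read 5.65, 5.93 and 6.30 with ssRNA and 6.78, 7.29 and 6.45 with saline, a difference of -0.88 ± 0.35. Both keratins were highest on saline array 2. Ankrd1, a titin-binding protein induced by stretch and injury, read 8.79, 9.28 and 9.24 with ssRNA and 9.999, 11.21 and 9.997 with saline, a difference of -1.30 ± 0.41 (95% interval -2.18 to -0.42). Its response differed from that of A/J, 1.37 ± 0.41, by -2.67 ± 0.59 (adjusted p = 0.00883), the largest such difference among the 24 leaning genes. Ankrd1 was higher in saline muscle of A/J-MyD88 than of A/J by 2.32 (limma, adjusted p = 0.00386). Its ssRNA legs averaged 9.10 ± 0.27 for A/J-MyD88, against 9.46 ± 0.58 for A/J. Ankrd1 was named for its A/J-MyD88 values, which enter both tests, so neither adjusted p is independent of that choice.

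Gadd45a, a stress gene of denervated and atrophying muscle, read 8.34, 8.50 and 8.72 with ssRNA and 9.25, 10.22 and 9.30 with saline, a difference of -1.07 ± 0.38. Rrad, a small GTPase that is induced in injured muscle, read 5.57, 6.28 and 5.97 with ssRNA and 6.63, 7.76 and 6.82 with saline, a difference of -1.12 ± 0.53. Ampd3, an AMP deaminase, differed by -0.70 ± 0.38 (-0.43 without saline array 2), with 7.59, 7.70 and 7.86 with ssRNA and 8.12, 8.96 and 8.17 with saline. Each of these was highest on saline array 2, as were 8 of the 12 genes. Tmem100 differed by -0.76 ± 0.29. Txn1, the redox protein thioredoxin, read 6.67, 5.91 and 6.74 with ssRNA and 7.10, 7.04 and 6.88 with saline, a difference of -0.57 ± 0.23. Hspe1, the mitochondrial co-chaperonin, read 7.84, 7.23 and 8.002 with ssRNA and 8.51, 8.06 and 8.07 with saline, a difference of -0.52 ± 0.20. Both were lowest on ssRNA array 2, without which the differences were -0.30 for Txn1 and -0.29 for Hspe1. Trim63, the ubiquitin ligase MuRF1, read 6.69, 6.77 and 6.38 with ssRNA and 6.90, 7.44 and 7.15 with saline (-0.55 ± 0.27). Eif4ebp2, a repressor of translation, read 8.57, 6.81 and 8.56 with ssRNA and 8.68, 8.67 and 8.63 with saline, a difference of -0.69 ± 0.33 that was -0.10 without ssRNA array 2. Trim63 and Eif4ebp2 did not lean in all settings, and the other 10 did.

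Red blood cell RNA leaned lower. Hba-a1, an alpha globin, read 11.06, 10.55 and 10.65 with ssRNA and 11.65, 11.33 and 11.36 with saline, a difference of -0.69 ± 0.30. The beta globins Hbb-bt and Hbb-bs, whose near-identical sequences a probe may not separate, differed by -0.52 ± 0.31 and -0.45 ± 0.37, and Alas2, the erythroid haem synthesis enzyme, by -0.33 ± 0.38. These 4 of 6 tested erythroid genes leaned lower (66.7%, against 3.23% of all genes), Hbb-bs not in all settings. The list median was -0.39 in A/J-MyD88 and -0.41 in A/J, and none was called in either strain. A 2-fold fall was excluded for 2 of the 6 and a 2-fold rise for all 6. Summed erythroid signal was 5071 to 8059 units on ssRNA arrays and 9880 to 10911 units on saline arrays. These sums were not scaled between arrays, and the lowest was on ssRNA array 3, the dimmest of the 6. On normalized values the list mean was 7.98, 7.89 and 7.81 on ssRNA arrays and 8.29, 8.34 and 8.13 on saline arrays.

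Slow fibre genes stood above 0 as a group. All 12 tested differences were above 0, with a median of 0.35 (0.02 in A/J), and 5 leaned higher (41.7%, against 5.63% of all genes): Myl2, Tnnc1, Tnnt1, Tnni1 and, not in all settings, Atp2a2. The slow inhibitory troponin Tnni1 read 6.01, 6.38 and 7.001 with ssRNA and 5.93, 5.77 and 5.75 with saline, a difference of 0.65 ± 0.28. Atp2a2, the calcium pump of slow fibres, read 9.66, 9.70 and 9.75 with ssRNA and 9.25, 9.59 and 9.05 with saline, a difference of 0.41 ± 0.21. Myl3, another slow light chain, differed by 0.06 ± 0.28 with overlapping legs, and Myh7, the slow myosin heavy chain, was detected on no array of A/J-MyD88. The list mean was 8.91, 9.16 and 9.31 on ssRNA arrays and 8.75, 8.81 and 8.65 on saline arrays, and the median was 0.19 without ssRNA array 3 and 0.53 without ssRNA array 1. A 2-fold rise was excluded for 7 of the 12 and a 2-fold fall for all 12. Fast fibre genes were level: 18 tested, a median of 0.02, and all with a 2-fold change excluded.

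Muscle regeneration genes pointed both ways. Of 23 tested, 11 were above 0 and 12 below, the median was -0.01 (0.58 in A/J), and the extremes were Myh8 and Ankrd1, described above. A 2-fold change was excluded for 17 of the 23 and a 1.5-fold change for 5, so this was among the less bounded groups. Extracellular matrix genes had a median of 0.16 (0.98 in A/J), with 28 of 36 above 0 and a 2-fold change excluded for all 36. Thbs1 was at background on all 6 arrays, so for it the exclusion reads background. The list mean was 8.27, 8.47 and 8.49 on ssRNA arrays and 8.43, 8.50 and 8.04 on saline arrays, and without saline array 3 the median was -0.01. The macrophage elastase Mmp12 read 5.65, 5.79 and 5.88 with ssRNA and 4.74, 5.26 and 5.59 with saline, a difference of 0.57 ± 0.24, without overlap. The collagen crosslinking enzyme Lox differed by -0.48 ± 0.29 with overlapping legs.

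Proliferation genes lay slightly below 0. Of 27 tested, 24 differences were below 0, and the median was -0.14 (1.12 in A/J, where 18 were called higher). All 27 had a 2-fold change excluded on the scale with its offset, which compresses changes of dim genes. The list mean was 5.89, 5.67 and 5.67 on ssRNA arrays and 5.77, 6.03 and 5.83 on saline arrays. Prc1, a cytokinesis protein, read 6.96, 6.83 and 6.85 with ssRNA and 7.08, 7.45 and 7.12 with saline, a difference of -0.34 ± 0.35, against 2.40 ± 0.35 in A/J. Mcm6, a subunit of the replicative helicase, read 6.33, 5.63 and 5.91 with ssRNA and 6.10, 6.45 and 6.15 with saline. Saline array 2 was the highest for 18 of the 27 genes. The median was -0.07 without it and -0.21 without ssRNA array 1.

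Metabolic genes were bounded closely. None of 44 tested respiratory and citric acid cycle genes was called, all 44 had a 2-fold and 41 a 1.5-fold change excluded, and the median was 0.03 (-0.35 in A/J). Among 24 glycolysis and glycogen genes the median was 0.02 and all had a 2-fold change excluded. Pygm, muscle glycogen phosphorylase, differed by 0.22 ± 0.21, against -1.08 ± 0.21 in A/J. Of 23 fatty acid oxidation genes, 22 had a 2-fold change excluded, with a median of 0.04. Decr1, an auxiliary enzyme of unsaturated fat oxidation, differed by 0.36 ± 0.19 against -1.06 ± 0.19 in A/J, and Acadl, a long-chain dehydrogenase, by -0.53 ± 0.30 with overlapping legs. The probes of Acadl disagreed: another one, the brighter over the compared arrays alone, differed by 0.14 in A/J-MyD88 and by -1.12 in A/J.

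Membrane repair genes (21 tested, median -0.01) all had a 2-fold change excluded. The calpain Capn3 differed by -0.33 ± 0.20 and the repair protein Trim72 by -0.28 ± 0.26, where ssRNA array 2 stood low at 10.24. Atrophy and autophagy genes had a median of -0.10, with 17 of 23 below 0 and Gadd45a and Trim63 the largest in size. Immediate early and heat shock genes had a median of -0.14, with 18 of 25 below 0. Their list mean was 7.68, 7.57 and 7.58 on ssRNA arrays and 8.04, 7.65 and 7.64 on saline arrays, and without saline array 1 the median was -0.01. Cryab, a small heat shock protein of the sarcomere, read 10.30, 10.71 and 10.53 with ssRNA and 10.91, 11.08 and 11.02 with saline, a difference of -0.49 ± 0.17, without overlap in all settings. Fos differed by -0.61 ± 0.69, and its arrays spanned 5.19 to 9.003, so a 2-fold fall was not excluded (95% interval -2.07 to 0.85), while a 2-fold rise was.

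Markers of other cell types gave medians between -0.11 and 0.07: neutrophils stood at -0.11 (4 genes), endothelium at -0.01 (15), T and NK cells at 0.05 (12), Schwann cells at -0.04 (8), fibroblasts at 0.07 (17), smooth muscle and pericytes at -0.03 (11), skin epithelium at 0.07 (3), adipocytes at 0.02 (7), and B and plasma cells at 0.06 (3). With 1 array left out, the fibroblast median ran from -0.11 (without saline array 3) to 0.22 (without saline array 2). The shortest lists moved with the scale: on the authors' values the neutrophil median was -0.66 and that of B and plasma cells 0.47. The neutrophil calprotectin gene S100a8 read 4.95, 4.73 and 4.59 with ssRNA and 5.25, 5.50 and 5.003 with saline, a difference of -0.49 ± 0.24, without overlap. Of the same list, 10 genes including S100a9 and Mpo were detected on no A/J-MyD88 array. Among them was Fpr2, which is 1 of the 4 tested. Cd3g, Cd28 and Klrk1 of the 12 T and NK genes were likewise detected on none. Klrd1, a receptor of NK cells, differed by 0.25 ± 0.17, against 2.40 ± 0.17 in A/J.

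**Figure D4:**
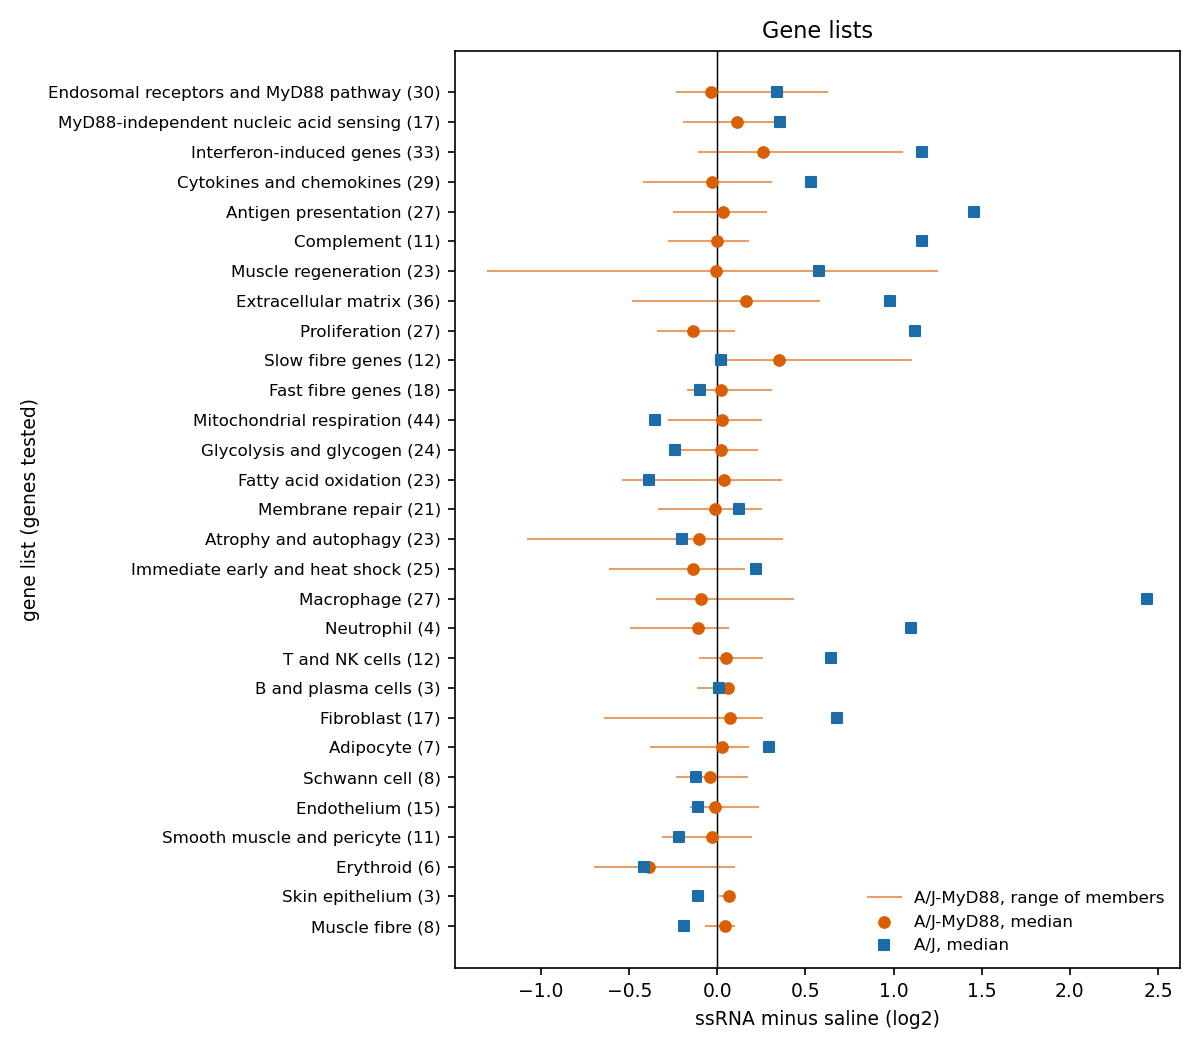
Median log2 difference between ssRNA and saline legs for each gene list in A/J-MyD88 (orange circles, lines from the lowest to the highest member) and A/J (blue squares); the number of tested genes is in brackets. A/J-MyD88 medians lie between -0.39 (erythroid) and 0.35 (slow fibre), and the A/J median reaches 2.44 (macrophage).

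A 2-fold change was not excluded for 115 genes, a rise for 57 of them and a fall for 69. The 12 with a rise not excluded that had risen over 2-fold in A/J were C1qtnf3, Ctsc, Ctsk, Fcer1g, Gpnmb, Ifit3, Irf7, Lrrc15, Mpeg1, Oasl2, Tnni1 and Usp18. Of the 8 widest intervals, 6 belonged to genes that differed by array number and not by leg. Csrp1, a LIM protein, read 7.70, 8.58 and 4.26 on ssRNA arrays and 7.78, 8.62 and 4.18 on saline arrays, at background on both arrays numbered 3. Il6st, the shared receptor chain of the interleukin 6 family, read 7.64, 4.24 and 6.52 with ssRNA and 7.62, 4.29 and 6.94 with saline, at background on both arrays numbered 2. Mpeg1, a pore-forming protein of macrophages, read 8.02, 4.91 and 5.18 with ssRNA and 7.86, 4.98 and 5.01 with saline, high on both arrays numbered 1. In each case the legs of 1 number were alike. With the number as a block, the 95% intervals became -0.46 to 0.44 for Csrp1, -0.43 to 0.13 for Il6st and -0.72 to 0.89 for Mpeg1, against -2.10 to 2.08, -1.69 to 1.38 and -1.62 to 1.80 without it, and a 2-fold change was excluded for all 3. With the block 75 genes were not bounded, 68 of them among the 115. These 3 genes, and those in the plot by array number, were chosen after their values were seen.

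**Figure D5:**
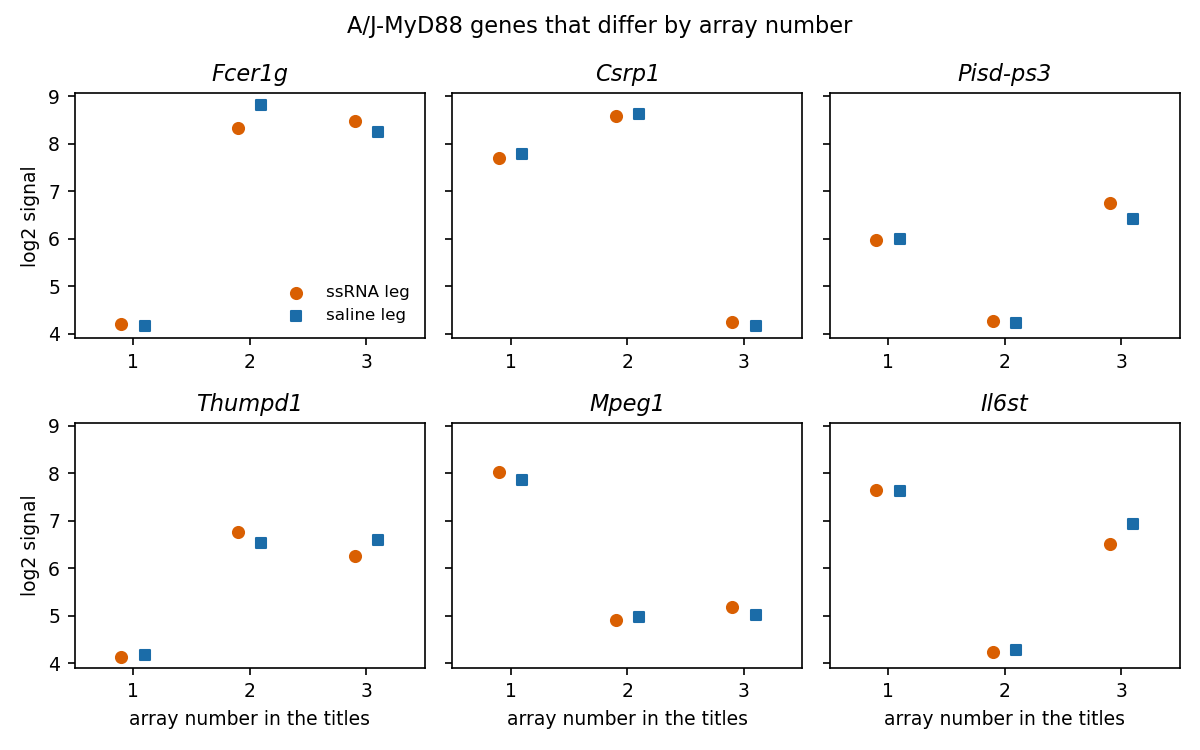
Log2 signal of 6 genes on the A/J-MyD88 arrays by the number in the array titles; orange circles are ssRNA legs and blue squares saline legs. Both legs of a number lie together, while numbers differ, as for Csrp1 (4.26 with ssRNA and 4.18 with saline on number 3).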

How the data were processed

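Signal intensities of 45281 probes were deposited without normalization on a linear scale, and the submitters' processing notes name GenomeStudio, with no version. Detection p-values were deposited beside them. A second deposited table holds the authors' processed intensities, quantile-normalized within a strain by their columns, and served as an alternative. Before log2 was taken, values under the 5th percentile of a strain's positive values were raised to it. Of all probes, 34885 had 1 symbol in the platform annotation, 18 several and 10378 none; 34807 matched the GRCm38.p6 gene table by Entrez ID and 0 symbols changed.

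In R 4.3.3 with limma 3.58.1, 17 arrays were background-corrected and quantile-normalized with neqc, with an offset of 16. A probe was kept where 3 or more arrays had a detection p under 0.05 (20825 probes), and the brightest stood for each gene. Group means were fitted with lmFit and eBayes (11 residual and 5.01 prior degrees of freedom), p-values were two-sided and adjusted by Benjamini and Hochberg over all genes, and exclusions were one-sided tests against 2-fold and 1.5-fold limits. The spread is pooled over the 6 groups: the median SD between arrays was 0.139 in ssRNA and 0.115 in saline muscle of A/J-MyD88, and up to 0.247 in other groups. The fit and the exclusion test were also run on simulated arrays with known changes. The simulated noise was independent between arrays, and the changes were added on the scale with its offset. The simulation therefore checked neither correlated array numbers nor the compression of dim genes.

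Array numbers were checked for pairing. Deviations from group means correlated between same-numbered arrays at 0.47, 0.17 and 0.17 in A/J-MyD88 and 0.40, 0.44 and 0.14 in A/J. For every number the best match was the same number in the other leg. The margin was smallest for number 3, at 0.17 against 0.09 for the next best match in A/J-MyD88 and 0.14 against 0.09 in A/J. The titles give the numbers, but the labels do not say whether a number marks the same mouse. Pairing of the legs was therefore not settled, and the fit with the number as a block was an alternative. Other alternatives were all 18 arrays, only the compared arrays, median centring, no background correction, other filters and leaving out each array.

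Named genes were, by rule, Dysf and Myd88, the 12 largest and 12 smallest differences among leaning genes detected on all arrays of the higher group, the 10 largest rises and 5 largest falls in A/J without overlap, the 2 largest differences of each list (both with some neighbours of known role), and the 6 narrowest intervals, with clone names passed over. Other genes named were chosen after their values were seen. Members, gene lists and rules were chosen with earlier results of these data known.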

Additional observations from a re-analysis of the deposited data

Results flagged for a closer look

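For 42 of the named genes the response of A/J-MyD88 muscle differed from that of A/J muscle by the interaction test of the limma fit (adjusted over all genes). Over all genes this test called 1144 of 11233 (10.2%). The A/J genes among the 42 were chosen for their response in A/J. Leaning genes and the largest of each list were chosen for their A/J-MyD88 difference. Both sets of arrays enter the interaction test, so for these genes its p-values are not independent of the choice. In each case the A/J-MyD88 difference was not called. Values are the A/J-MyD88 response minus the A/J response, in log2 units.

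Among macrophage, Fc receptor and chemokine genes the values were -4.03 for Ccl8, -3.79 for Ms4a6d, -3.74 for Lyz2, -3.53 for Ms4a7, -3.29 for Ly86, -3.17 for Fcgr4, -3.13 for Cd52, -2.60 for Gpnmb and -2.17 for Ccl7. Other immune genes gave -3.64 for Ifi27l2a, -3.15 for Plac8, -2.15 for Klrd1, -2.13 for Cfp, -1.83 for H2-Eb1, -1.43 for Csf3r, -1.40 for S100a8 and -1.17 for Myd88. Adjusted p over both groups ran from 0.000113 for Ccl8 and Cd52 to 0.0144 for S100a8.

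Growth, matrix, stress and translation genes gave -2.74 for Prc1, -2.67 for Ankrd1, -2.08 for Lox, -1.58 for Mcm6, -1.23 for Txn1, -0.97 for Cryab and -0.52 for Rplp1. Of these, Ankrd1, Txn1, Cryab, Prc1 and Rplp1 also lay lower on all ssRNA arrays of A/J-MyD88, which for Ankrd1 and Txn1 was the rule that named them. Metabolic genes and Wnt4 gave positive values, 1.65 for Slc16a3, 1.60 for Pdk2, 1.48 for Fitm1, 1.42 for Decr1, 1.34 for Crat, 1.30 for Pygm, 1.15 for Wnt4 and 0.83 for Idh3a. Their A/J differences were below 0 and their A/J-MyD88 differences ranged from -0.19 for Wnt4 to 0.36 for Decr1. Among list members named for their role, the values were -3.05 for Adgre1, -2.47 for Tlr13, -2.42 for Csf1r, -2.20 for Tlr7, -2.01 for Lgals3bp, -1.92 for Unc93b1, -1.35 for Ifitm3, -0.57 for Nfkb2, 0.64 for Tab1 and 1.31 for Myl3. With the array number as a block, Txn1, Rplp1 and Nfkb2 were no longer called (adjusted p = 0.0625, 0.0582 and 0.0647). The causes were not tested.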

How the results depend on the processing

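Every alternative gave 0 called genes for A/J-MyD88. With the empty array kept (all 18 arrays), whose spread enters the pooled error, a 2-fold change was excluded for 6130 genes, a 1.5-fold change for 1197 (10.6%), a 2-fold rise for 143 of the 168 genes over 2-fold higher in A/J, and the interaction called 25 genes. With only the compared arrays the interaction called 2174 genes, and 2686 when the replicate block was added, an alternative chosen after seeing the data, as were the split by signal level and the count of genes leaning in 6 settings. The authors' values gave 6986 genes with a 2-fold and 2707 with a 1.5-fold change excluded, 596 of 851 A/J genes with a rise excluded, 643 interaction calls and an SD of 0.390. Median centring gave 563 leaning genes, 879 of 898 A/J genes with a rise excluded, and 1764 interaction calls. Without a filter on dim probes 1766 of 19057 genes leaned and 18906 had a 2-fold change excluded. The causes of these shifts were not tested.

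The replicate block left 0 genes called (smallest adjusted p 0.596; 212 genes at an unadjusted p under 0.05, 111 of them among the 131 without it), with 11158 genes excluded and 1145 interaction calls; of 165 genes examined (named genes and the interferon, slow fibre and erythroid lists), it called the interaction of 18 more, among them Fcer1g, Krt18, Rrad, Gadd45a, Irf7, Oasl2 and Mpeg1, and lost 3, Txn1, Rplp1 and Nfkb2. Leaving out each A/J-MyD88 array in turn gave 0 calls, 1716 to 2550 leaning genes (fewer arrays overlap less), 10860 to 11010 genes with a 2-fold change excluded, 521 to 538 A/J genes with a rise excluded, 599 to 1017 interaction calls and an SD of 0.143 to 0.186. The low of 599 came without saline array 2. Called values changed sign for Acadl alone: with only the compared arrays, with or without the replicate block, another probe stood for it and gave -1.12 in A/J and an interaction of 1.27. Among named genes, an uncalled A/J-MyD88 difference changed sign in 125 combinations of gene and setting, over 56 genes. With 3 arrays a leg, the median half-width of the intervals was about 0.35 log2 units. For a typical gene, an estimated change under it did not reach an unadjusted p under 0.05. It is not the limit of the adjusted test over all genes, which needs larger changes. Krt18 at -1.86 and Mmp13 at 1.60 were not called.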

Other observations

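In all, 12 genes differed by more than 2 log2 units between array numbers in A/J-MyD88 while the legs of each number lay within 0.5 of each other. They were picked out after the values were seen. Beside Fcer1g, Csrp1, Il6st, Mpeg1, Pisd-ps3 and Thumpd1, they include Emb, which encodes the cell adhesion protein embigin, at 6.77, 4.25 and 5.82 on ssRNA arrays and 7.10, 4.29 and 5.51 on saline arrays, and Chmp1a, an ESCRT subunit, at 4.37, 6.48 and 5.56 with ssRNA and 4.35, 6.44 and 5.93 with saline. Both sat at or near background on 1 number. Ddit4, a stress-induced inhibitor of mTOR signalling, read 6.62, 7.64 and 8.94 with ssRNA and 6.41, 7.46 and 9.26 with saline, and Depp1, a FoxO target, 6.07, 6.91 and 8.54 with ssRNA and 6.46, 7.31 and 8.57 with saline, both highest on number 3. The remaining 2, Mtrex and Uap1, read 8.15, 5.95 and 7.58 and 5.29, 5.17 and 7.01 with ssRNA and 8.34, 5.97 and 7.46 and 5.40, 4.92 and 7.22 with saline. In A/J, Thumpd1 was likewise low on both arrays numbered 1, at 4.26 with ssRNA and 4.21 with saline.

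Among leaning genes, 133 had an unadjusted p under 0.05 in the fit with the array number as a block, and 105 without it. None of these passed adjustment.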
